A study of Mus musculus with 6 samples.

Results

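Rods and cones are told apart by a small set of transcription factors and partner proteins, and 10 genes of this set were followed in single cells from the back of the mouse eye. They are Crx, Nrl, Nr2e3, Otx2, Rorb, Neurod1, Esrrb, Samd7, Prdm1 and Thrb, chosen by name for these roles, 10 of the 33696 genes measured. The choice was made with earlier results of these data known. Their raw counts of UMIs (molecular tags that count each captured transcript once) were summed per pool and cell class and are given as CPM, the count scaled to a fixed total of UMIs of that class. The treated mice received tropicamide, a muscarinic receptor antagonist that relaxes the ciliary muscle and widens the pupil, in 6 drops spaced 10 min apart, and tissue was taken 1 h after them. The control mice received saline drops at the same spacing, and no source used here gives their number of drops or any wait, or the strain, genotype and age of either group. Each group had 12 mice, whose right eyes were pooled by 4, so that 3 tropicamide pools stood against 3 saline pools that the labels give as sclera, choroid and retina without lens, cornea and iris with ciliary body. Cells named corneal or conjunctival epithelium (199, with 14 to 46 per pool) and ciliary or iris epithelium (85) were found in the pools all the same. The labels call the ciliary muscle relaxed after tropicamide and contracted after saline, a state that no measurement here tests. The cells were named by their markers as rod-like, cone-like and so on, and are called rods, cones and the like for short.

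The 6 pools held 66434 barcodes, of which 60096 remained after the cell filters and the removal of doublets. Classes were named from marker genes that did not include the 10 members, which were also kept out of the clustering. Rods made up 83.3% of the cells, 6570 to 9604 per tropicamide pool and 7648 to 8814 per saline pool, with 14356957 to 20270292 rod UMIs per pool over both groups. Cones numbered 430 cells in all (76 to 101 per tropicamide pool, 28 to 77 per saline pool) and bipolar cells 465. Cells of the retinal pigment epithelium numbered 1869, with 272 to 680 per tropicamide pool and 71 to 189 per saline pool. Marker genes were read to check these names. The 9 cone markers summed to 34890 to 41230 CPM (tropicamide) and 33870 to 42190 CPM (saline) in cones, against 263 to 313 CPM (tropicamide) and 285 to 311 CPM (saline) in rods. Rod markers were also read in cones, where 7 of them summed to 9570 to 11280 CPM (tropicamide) and 9971 to 12140 CPM (saline). In rods these 7 summed to 21070 to 21950 CPM (tropicamide) and 20830 to 21260 CPM (saline). The sum is not split by marker, so it does not measure how much of the cone class is rod RNA. The 8 rod bipolar markers summed to 9352 to 10560 CPM (tropicamide) and 10010 to 12330 CPM (saline) in bipolar cells. Between any 2 pools 22 to 64 barcodes were shared, at most 0.504% of the smaller pool. No correction was made for RNA that leaks from broken cells (free RNA). Rod markers were detected in every class whose levels are given, and the source of these transcripts outside rods was not tested. The p-values below measure the spread between pools.

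In the mouse retina Otx2, a homeodomain factor, starts the photoreceptor programme, and its relative Crx then drives most photoreceptor genes. Nrl, a leucine zipper factor of the MAF family, sets the rod fate, and its target Nr2e3, an orphan nuclear receptor, represses cone genes in rods. Rorb and Esrrb are nuclear receptors with parts in rod development and rod survival, Neurod1 is a basic helix-loop-helix factor, and Samd7 is a Polycomb partner that silences genes unsuited to rods. Prdm1 (Blimp1) holds new photoreceptors back from the bipolar fate, and Thrb encodes the thyroid hormone receptor that sets the middle-wavelength cone opsin.

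The start sites of all 10 members are listed by RefSeq on the build GRCm38.p6, at 16 starts, and the 250 bases before each were searched on both strands for 3 motifs of 6 bases. The core bound by the OTX and CRX homeodomains is TAATCC, which reads GGATTA when it lies on the opposite strand of the promoter. The core of the MAF element that NRL binds is TGCTGA. The nuclear receptor element searched for is AGGTCA. The homeodomain core stood before 4 of the 16 starts, those of Crx, Samd7, Thrb and 1 start of Otx2, which is 25.0% of them, and before 6.25% of 32851 mouse starts. The MAF core stood before 3 of the 16 (18.8%, against 16.1% of all starts), those of Neurod1, Rorb and Otx2, and the nuclear receptor element before 1 (6.25%, against 14.0%), that of Thrb. The 250 bases before the starts of 5 genes, given from 5′ to 3′ with motif matches in capitals, are shown for Nr2e3, which changed most among the members, for Crx, Samd7 and Thrb, which hold the homeodomain core, and for Samd11, a partner of Samd7 that also rose in rods. Nr2e3 lies at chr9:59950080-59950329 on the minus strand, Crx at chr7:15879956-15880205 on the minus strand, Samd7 at chr3:30746043-30746292 on the plus strand, the upstream of 2 Thrb starts at chr14:17660710-17660959 on the plus strand, and Samd11 at chr4:156255343-156255592 on the minus strand.
Nr2e3: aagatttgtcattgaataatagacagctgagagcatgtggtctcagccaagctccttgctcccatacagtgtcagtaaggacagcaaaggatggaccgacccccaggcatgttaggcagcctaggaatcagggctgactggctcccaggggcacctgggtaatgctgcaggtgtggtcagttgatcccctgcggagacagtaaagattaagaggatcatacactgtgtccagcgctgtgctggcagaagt
Crx: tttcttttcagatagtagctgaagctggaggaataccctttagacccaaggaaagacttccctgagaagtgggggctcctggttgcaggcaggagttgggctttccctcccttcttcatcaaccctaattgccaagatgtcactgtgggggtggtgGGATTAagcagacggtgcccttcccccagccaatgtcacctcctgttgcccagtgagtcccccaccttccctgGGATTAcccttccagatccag
Samd7: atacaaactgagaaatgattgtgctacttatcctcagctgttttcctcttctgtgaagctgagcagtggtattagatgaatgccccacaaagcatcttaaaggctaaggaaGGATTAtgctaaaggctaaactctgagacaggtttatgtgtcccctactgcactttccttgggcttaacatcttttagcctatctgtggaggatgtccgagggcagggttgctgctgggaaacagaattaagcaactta
Thrb: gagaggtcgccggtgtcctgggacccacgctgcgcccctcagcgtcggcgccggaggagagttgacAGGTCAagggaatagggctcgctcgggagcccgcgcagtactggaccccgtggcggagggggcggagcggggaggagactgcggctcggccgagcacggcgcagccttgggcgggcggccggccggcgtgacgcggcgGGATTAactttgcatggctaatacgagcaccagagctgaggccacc
Samd11: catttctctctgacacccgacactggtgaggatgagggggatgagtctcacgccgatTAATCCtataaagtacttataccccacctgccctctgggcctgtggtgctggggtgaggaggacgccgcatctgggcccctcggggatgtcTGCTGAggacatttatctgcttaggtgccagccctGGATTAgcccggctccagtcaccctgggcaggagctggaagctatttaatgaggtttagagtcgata
Crx has the core read as GGATTA at 94 to 89 and again at 21 to 16 bases before its start, and Samd7 has it at 139 to 134 bases. Thrb has it at 46 to 41 bases and AGGTCA at 184 to 179 bases. Samd11 has TAATCC at 193 to 188 bases, its reverse at 67 to 62 bases and TGCTGA at 102 to 97 bases. None of the 3 motifs was found in the 250 bases before Nr2e3. A match is a run of letters and not a measured binding site. The counts themselves were made on GRCm39, so these coordinates belong to the RefSeq build only.

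The factors shared by photoreceptors separated the classes to different degrees. Levels are compared only within a gene, and since the classes were cut from the same cells these comparisons carry no test. Crx had 551, 568 and 669.6 CPM in cones (lowest, median and highest of 6 pools), against 698, 748 and 789 CPM in rods. Its mean log2 ratio of cones over rods was -0.35 ± 0.12 (SD, n = 6), and rods were higher in every pool. Bipolar cells, which also use Crx in the mouse, had 173 ± 34.5 CPM of it (SD, n = 6), and every class outside the retina's photoreceptors and bipolar cells averaged 54.4 CPM or less. Neurod1 did not separate the photoreceptors: it averaged 875 ± 139 CPM in cones and 893 ± 76.4 CPM in rods (SD, n = 6 each), and cones were the higher in 3 of 6 pools. Its level in bipolar cells was 245 ± 21.8 CPM, and a log2 ratio of bipolar cells over rods of -1.87 ± 0.09 (SD, n = 6) held in all 6 pools.

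Otx2 had another order, with bipolar cells at the top. It averaged 428 ± 21.3 CPM in bipolar cells, 308 ± 32.7 CPM in the retinal pigment epithelium, 255 ± 24.3 CPM in rods and 116 ± 31.5 CPM in cones (SD, n = 6 each). The log2 ratio of bipolar cells over rods was 0.75 ± 0.11 and that of the pigment epithelium over rods 0.27 ± 0.19 (SD, n = 6), and both were above 0 in every pool. The ranges of the pigment epithelium (256 to 353 CPM) and of rods (228 to 296 CPM) overlapped when pools were not matched. Müller glia, the next class, had 15.6 ± 6.39 CPM.

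Rorb was spread over the neural retina. Müller glia had 1284 ± 166 CPM, amacrine cells 1003 ± 264 CPM, rods 923 ± 43.7 CPM, bipolar cells 895 ± 113 CPM and cones 429 ± 49.2 CPM (SD, n = 6 each). The ranges of the 4 leading classes overlapped with their neighbours in this order, while cones lay below bipolar cells in all 6 pools and below rods by a log2 ratio of cones over rods of -1.11 ± 0.17 (SD, n = 6). The Müller cells of the tropicamide pools were shallow, with median depths of 1318 to 1631 UMIs, against 5293 to 7508 UMIs in the saline pools.

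The rod factors Nrl, Nr2e3 and Esrrb and the rod partner Samd7 all had their highest level in rods. Nrl averaged 110 ± 20.4 CPM in cones and 92.3 ± 19.7 CPM in bipolar cells, against 1021 ± 52.7 CPM in rods (SD, n = 6 each). Nr2e3 averaged 69.2 ± 23.0 CPM in cones and 58.2 ± 17.2 CPM in bipolar cells, against 1027 ± 208 CPM in rods. Its rod values lay at 1129.8 to 1256 CPM in tropicamide pools and at 829 to 852 CPM in saline pools. Esrrb averaged 54.4 ± 14.5 CPM in cones and 35.8 ± 14.8 CPM in bipolar cells, against 634 ± 58.7 CPM in rods, a log2 ratio of cones over rods of -3.58 ± 0.41 (SD, n = 6). Samd7 differed from these 3 in cones, where it had 174, 276 and 330 CPM (lowest, median and highest of 6 pools), against 1059, 1113 and 1258 CPM in rods. Its log2 ratio of cones over rods was -2.15 ± 0.39, while for Nr2e3 the ratio was -3.95 ± 0.41 and for Nrl -3.24 ± 0.30 (SD, n = 6 each).

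Thrb and Prdm1 were higher in cones than in rods. Thrb averaged 1161 ± 193 CPM in cones, against 797 ± 46.9 CPM in rods (SD, n = 6 each), with a log2 ratio of 0.53 ± 0.18 and cones higher in 6 of 6 pools. The pool ranges, 953 to 1432 CPM in cones and 737 to 877 CPM in rods, did not overlap. Müller glia had 380 ± 86.5 CPM of Thrb and bipolar cells 161 ± 61.4 CPM (SD, n = 6 each). The bipolar clusters differed in Thrb, the largest, of 175 cells, having 349 CPM and the next, of 140 cells, 26.6 CPM, with 54.6 to 185 CPM in the other 3. Prdm1 averaged 159 ± 50.3 CPM in cones, against 95.9 ± 7.51 CPM in rods (SD, n = 6 each), and its log2 ratio of 0.67 ± 0.42 was above 0 in all 6 pools, though the ranges overlapped. Prdm1 was next highest in smooth muscle cells (46.8 ± 16.9 CPM) and endothelial cells (35.6 ± 10.2 CPM), and bipolar cells had 10.5 ± 5.57 CPM. The cones came from 2 clusters that differed in depth. The larger, of 321 cells with a median of 7810 UMIs, had 1288 CPM of Thrb and 183 CPM of Prdm1, and the smaller, of 109 cells with a median of 1857 UMIs and 12.3% mitochondrial UMIs, had 381 CPM of Thrb and 9.18 CPM of Prdm1. The smaller cluster was higher in the rod factors, with 271 CPM of Nrl and 170 CPM of Nr2e3, against 89.5 and 59.4 CPM in the larger.

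**Figure D1:**
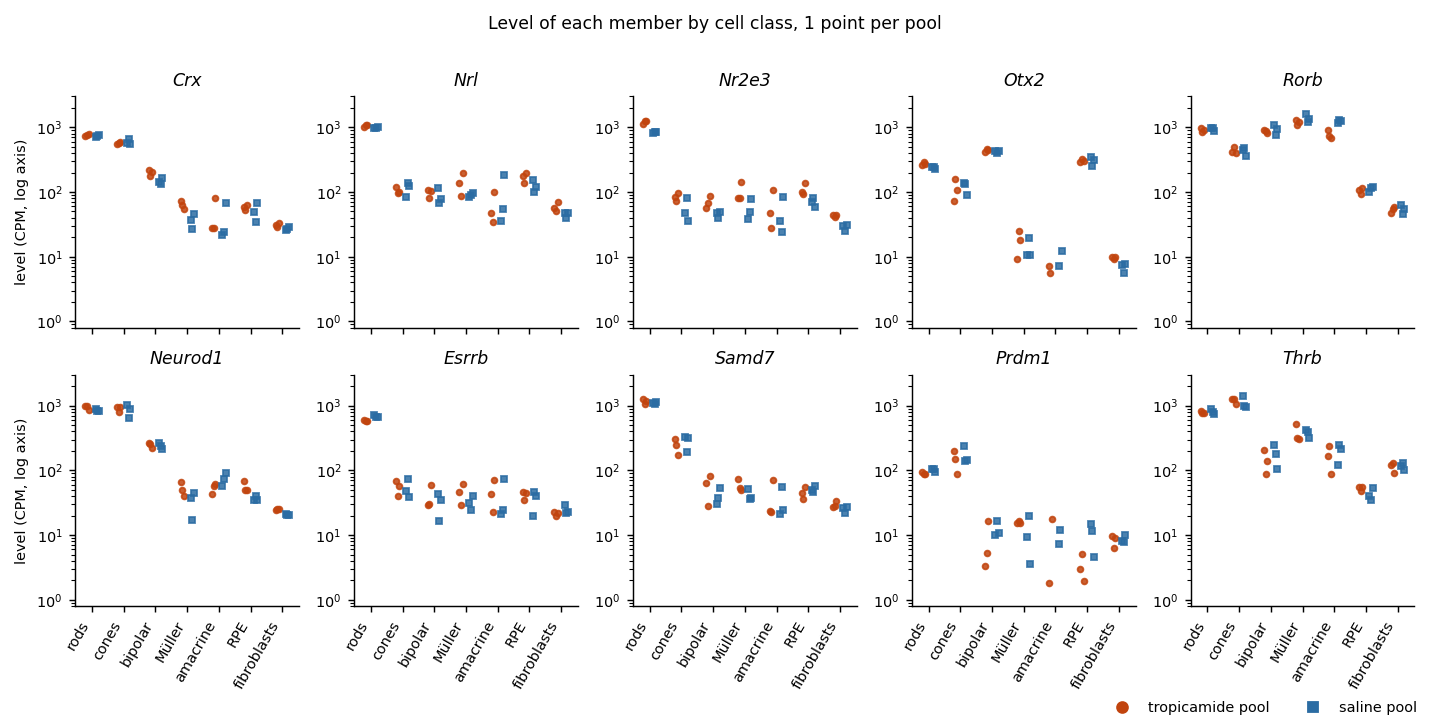
Level of each member in 7 cell classes, in CPM on a log axis, with 1 point per pool (circles tropicamide, squares saline). Crx and Neurod1 are high in rods and cones, Nrl, Nr2e3 and Esrrb in rods, Otx2 in bipolar cells and pigment epithelium, Rorb across the neural retina; 4 points at 0 CPM (Otx2 and Prdm1 in amacrine cells) are not drawn.

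The share of cells with at least 1 UMI gave a like picture after every cell was thinned to 1000 UMIs. Thrb was found in 60.2% ± 4.40 of cones and 49.7% ± 1.72 of rods (SD, n = 6 each), with fibroblasts at 9.06% ± 1.29. Otx2 was found in 35.3% ± 5.12 of bipolar cells, 25.3% ± 5.34 of pigment epithelial cells and 22.2% ± 1.73 of rods, with fibroblasts at 0.690% ± 0.312. Nr2e3 was found in 6.74% ± 3.39 of cones, 5.65% ± 1.48 of bipolar cells and 60.7% ± 6.87 of rods, with fibroblasts at 3.11% ± 1.31. Fibroblasts, which are not photoreceptors, are given for comparison and do not measure the share that free RNA gives. Nr2e3 was found in 9.85% ± 3.73 of Müller glia and 7.50% ± 4.28 of pigment epithelial cells, above cones and bipolar cells. Thrb was found in 4.13% ± 1.18 of pigment epithelial cells, below fibroblasts. Thinning left out 1109 to 1866 rods per tropicamide pool and 1335 to 1824 per saline pool, at most 8 cones in any pool, and 584 of 1869 pigment epithelial cells. Without thinning, Thrb was found in 81.3% of cones and 68.5% of rods, with fibroblasts at 52.3%, at median depths of 6373, 2091 and 12420 UMIs in the same order. Otx2 was then found in 79.8% of bipolar cells, 41.4% of pigment epithelial cells and 37.4% of rods, and Nr2e3 in 21.8% of cones, 21.4% of bipolar cells and 74.3% of rods, below its 29.8% of fibroblasts in both cones and bipolar cells.

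Levels in CPM were also set against the mean of fibroblasts, which are not photoreceptors; this comparison was added after the data were seen. In cones Crx was 20.2 times the mean fibroblast level, Neurod1 38.2 times, Prdm1 18.7 times, Otx2 14.0 times, Thrb 10.1 times, Samd7 9.53 times and Rorb 7.95 times. Nrl (2.11 times), Nr2e3 (1.93 times) and Esrrb (2.34 times) were much nearer to fibroblasts in cones. Whether these low levels came from the cones themselves or from free RNA was not tested, and they are not read as expression. Fibroblasts had 115 ± 15.7 CPM of Thrb, more than the 48.1 ± 8.97 CPM of the pigment epithelium (SD, n = 6 each), so for Thrb this comparison has no low background.

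Bipolar cells had 51.7 times the fibroblast level of Otx2, 16.6 times that of Rorb, 10.7 times that of Neurod1 and 6.01 times that of Crx. Their Nrl (1.77 times), Nr2e3 (1.62 times), Esrrb (1.54 times), Samd7 (1.80 times), Thrb (1.41 times) and Prdm1 (1.23 times) were nearer to it. In the pigment epithelium Otx2, which acts with Mitf in pigment cells, was 37.2 times the fibroblast level, while Nrl was 2.82 times and Nr2e3 2.52 times.

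Genes with the most similar profile were ranked by Pearson correlation of log2(CPM + 1) over 60 points, 6 pools of 10 classes, among 11893 genes with at least 20 CPM in some class. The points of a pool share a library and free RNA, so the coefficients describe these libraries only. Crx and Neurod1 ranked near the top of each other's list (r = 0.963), Crx together with Cplx4 (0.964), a complexin of ribbon synapses, and Rpgrip1 (0.961), a protein of the connecting cilium. Neurod1 was also followed by Pcdh15 (0.961) and Cplx4 (0.952). Among the genes closest to Nrl were Gnat1 (0.972), the rod transducin subunit, and Guca1b (0.968), and among those closest to Nr2e3 were Gnat1 (0.958) and Cnga1 (0.956). Esrrb followed the rod phosphodiesterase genes Pde6a (0.957) and Pde6b (0.920) with Pdzph1 (0.934) between them, and Samd7 followed Marchf1 (0.957), Prph2 (0.954) and Sag (0.953). Otx2 was closest to Otx2os1 (0.873), transcribed opposite to it, and reads of the pair cannot be told apart where strand was not used in counting, which is not stated. Lrit2 (0.808) and Unc119 (0.805) came next. Rorb was closest to Zfp612 (0.936), Amph (0.934) and Ppp1r9a (0.932), Thrb to Cadm2 (0.864), Map2 (0.863) and Rgs20 (0.863), and Prdm1 to Pdzd2 (0.787), Pbx3 (0.773) and Cpt1a (0.743).

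Within rods the members did not keep a fixed proportion. Of the 11 rod clusters, 8 had at least 50 cells in every pool. The largest, A0 with 13011 cells, had 1275 CPM of Nr2e3, 1048 CPM of Neurod1, 563 CPM of Esrrb and 695 CPM of Thrb. A5, with 4413 cells and a median of only 884 UMIs, had 572 CPM of Nr2e3 and 393 CPM of Neurod1, with 922 CPM of Esrrb and 1044 CPM of Thrb. A6, of 2219 cells with a median of 957 UMIs, was like A5 in these 4 genes, at 609, 393, 822 and 935 CPM in the same order. A small cluster of 123 cells, B22, had 2987 CPM of Nrl but 115 CPM of Samd7 and 99.4 CPM of Thrb. Since clusters were cut from correlated genes of the same cells, these values are a description.

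Rods also differed by the share of mitochondrial UMIs, which the labels do not sort by. The 12237 rods with at least 1% mitochondrial UMIs were set against the 37842 rods below 1%. Nrl averaged 1137 ± 78.5 CPM in the upper set and 977 ± 45.0 CPM in the lower, a log2 ratio of 0.22 ± 0.07 (SD, n = 6), and was higher in 6 of 6 pools. Samd7 averaged 910 ± 88.4 CPM in the upper set and 1215 ± 92.2 CPM in the lower, a log2 ratio of -0.42 ± 0.09, and was higher in 0 of 6 pools. The median over 7606 genes was -0.14, with 76.4% of genes below 0, and Crx (-0.15), Rorb (-0.15), Neurod1 (-0.14) and Thrb (-0.14) sat at that median. Nr2e3 (-0.10), Otx2 (-0.09), Esrrb (-0.03) and Prdm1 (-0.20) lay near it.

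After tropicamide Nr2e3 rose in rods, Otx2 rose less and Esrrb fell, while the other 7 members did not pass the test. Nr2e3 had 1129.8, 1256 and 1250.2 CPM in rods of the tropicamide pools, against 829, 842 and 852 CPM in rods of the saline pools. The groups did not overlap, and the gap between them was wider than either group's own range. The log2 fold change was 0.54 ± 0.05 (SE, n = 3 pools each, 95% interval 0.43 to 0.66; edgeR quasi-likelihood test, adjusted p = 0.000757), and Nr2e3 ranked 9 of 16403 genes by p. It passed in all 16 alternatives, with log2 fold changes of 0.47 to 0.60.

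Otx2 had 258, 296 and 267 CPM in rods of the tropicamide pools, against 241, 241 and 228 CPM in those of the saline pools, without overlap. Its log2 fold change was 0.23 ± 0.06 (SE, n = 3 pools each; edgeR, adjusted p = 0.0361). The call was lost without tropicamide replicate 2 or 3 or without any 1 saline pool, at 0.17 to 0.24 on the log2 scale (adjusted p 0.0528 to 0.147), and also in the largest rod cluster alone (0.21, adjusted p = 0.0782) and in rods of at least 1% mitochondrial UMIs (0.17, adjusted p = 0.213). Esrrb had 600.5, 577 and 570.2 CPM in tropicamide rods, against 710.0, 679 and 665 CPM in saline rods, again without overlap. Its log2 fold change was -0.22 ± 0.05 (SE, n = 3 pools each; edgeR, adjusted p = 0.0171). The call was lost without tropicamide replicate 1 (-0.23, adjusted p = 0.0503) or 2 (-0.21, 0.0902), without saline replicate 2 (-0.22, 0.0529), in the largest rod cluster (-0.16, 0.0782), and in rods of at least 1% mitochondrial UMIs (-0.13, 0.357).

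Rods as a whole changed in many genes: 1680 of 16403 passed, which is 10.2%, with 905 higher (5.52%) and 775 lower (4.72%). Among the 10 members 3 passed, 2 higher and 1 lower, and their median log2 fold change was 0.09, against -0.003 for all genes tested. The groups of 4 members did not overlap in rods, the 3 named and Prdm1, where 32.2% of all genes tested had groups that did not overlap. Prdm1 had 92.9, 89.0 and 88.0 CPM (tropicamide), against 106, 103 and 96.03 CPM (saline), or -0.16 ± 0.05 on the log2 scale (SE; adjusted p = 0.0819, edgeR). Neurod1 had 977, 992 and 871 CPM in tropicamide rods, against 882, 817 and 817 CPM in saline rods, or 0.19 ± 0.06 on the log2 scale (SE; adjusted p = 0.0560, edgeR). Both passed in some alternatives, Neurod1 in 5 and Prdm1 in 2 of 16.

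Nrl, the activator of Nr2e3, had 1011, 1081 and 1086 CPM in tropicamide rods, against 974, 961 and 1014 CPM in saline rods. Its log2 fold change was 0.13 ± 0.05 (SE; adjusted p = 0.120, edgeR), less than that of Nr2e3, and the ranges overlapped. Crx had 739.99 to 789 CPM in tropicamide rods and 698 to 755 CPM in saline rods (0.08 ± 0.05, adjusted p = 0.303), and Samd7 had 1059 to 1258 CPM in tropicamide rods and 1067 to 1145 CPM in saline rods (0.10 ± 0.06, adjusted p = 0.298). Rorb had 859 to 961 CPM in tropicamide rods and 885 to 959 CPM in saline rods (-0.02 ± 0.05, adjusted p = 0.851). Thrb had 777 to 816 CPM in tropicamide rods and 737 to 877 CPM in saline rods (-0.01 ± 0.06, adjusted p = 0.958). The 95% intervals of Crx (-0.03 to 0.19), Rorb (-0.14 to 0.10) and Thrb (-0.14 to 0.13) are the range of log2 fold changes that these pools allow.

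**Figure D2:**
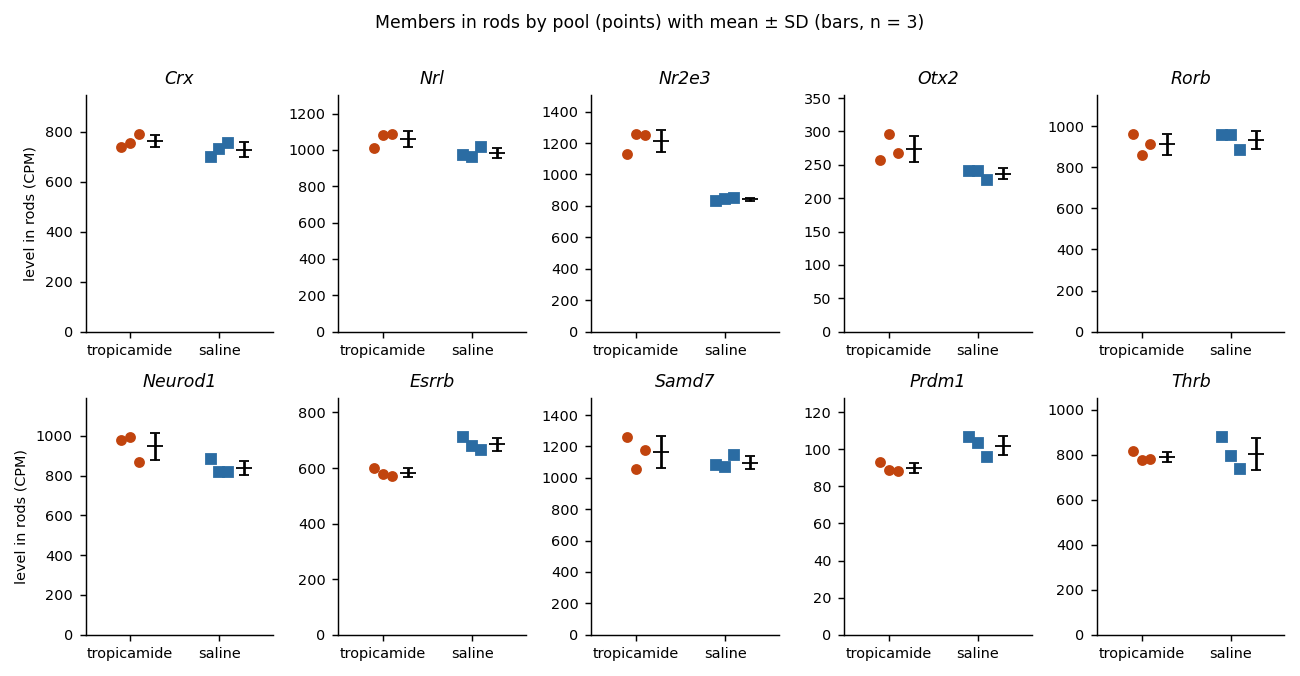
Level of each member in rods in CPM, on axes that start at 0, with tropicamide pools (circles) left of saline pools (squares) and the mean ± SD of 3 pools beside them. Nr2e3 sits at 1129.8 to 1256 CPM after tropicamide and 829 to 852 CPM after saline; Otx2, Esrrb and Prdm1 also have groups that do not overlap.

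The Nr2e3 difference was present within every rod cluster examined. In all 8 clusters the 3 tropicamide pools were above the 3 saline pools, with log2 ratios of the group means of 0.34 to 0.59. In A0 it averaged 1412 ± 65.6 CPM (tropicamide) and 1028 ± 13.1 CPM (saline), and in the shallow A5 713 ± 34.4 CPM (tropicamide) and 489 ± 35.3 CPM (saline; SD, n = 3 each). Esrrb had a lower tropicamide mean in 8 of 8 clusters, without overlap in 6, and Otx2 a higher one in 8 of 8, without overlap in 4. The clusters are parts of the same 6 pools and not independent repeats. In rods as a whole 32.2% of all genes tested had groups that did not overlap, and the share within clusters was not counted. The makeup of rods differed as well: A0 held 27.9% to 38.9% of rods in tropicamide pools, against 16.1% to 23.1% in saline pools. A1 held 11.5% to 14.9% in tropicamide pools, against 21.5% to 25.4% in saline pools. For A5 the ranges overlapped, at 3.64% to 8.29% in tropicamide pools and 5.43% to 18.75% in saline pools. Clusters were cut with genes that also differ between the groups, so these shares are not a result. Rods under 1% mitochondrial UMIs gave 0.55 for Nr2e3 and rods of at least 1% gave 0.53 (edgeR, adjusted p = 8.99e-05 and 0.000706).

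**Figure D3:**
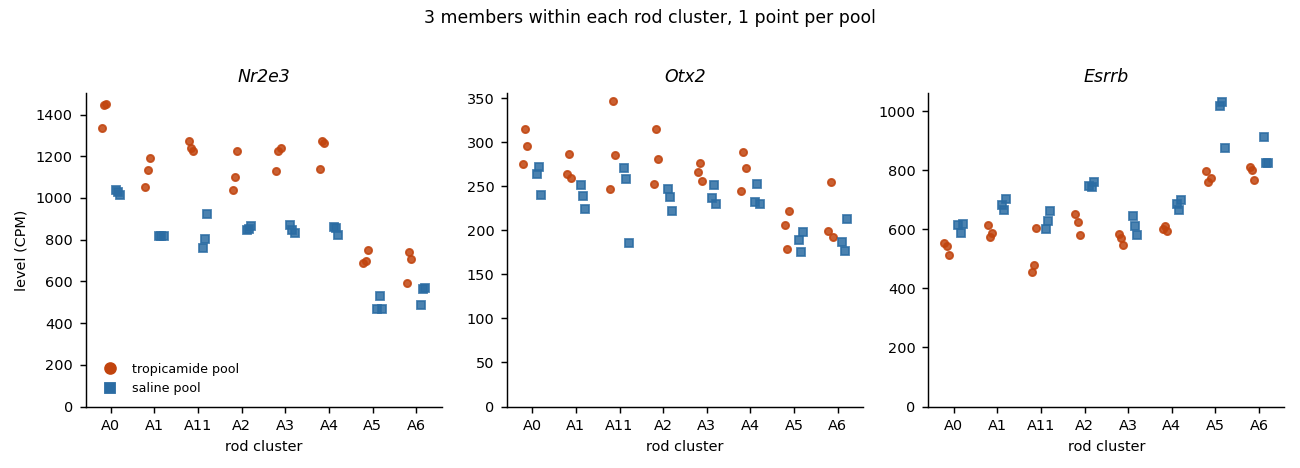
Nr2e3, Otx2 and Esrrb in CPM within the 8 rod clusters that had at least 50 rods in every pool, with 1 point per pool (circles tropicamide, squares saline). Tropicamide pools are above saline pools for Nr2e3 in 8 of 8 clusters and below them for Esrrb in 6 of 8.

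Rods of the tropicamide pools also carried more transcripts of some other cells. The 7 pigment epithelium markers summed to 126 to 309 CPM in tropicamide rods, against 38.1 to 79.7 CPM in saline rods, the 8 fibroblast markers to 352 to 513 CPM (tropicamide) and 167 to 329 CPM (saline), and the 5 erythroid markers to 52.2 to 2145 CPM (tropicamide) and 12.4 to 29.4 CPM (saline). All markers of these 3 lists were detected in rods. The 8 corneal or conjunctival markers summed to 53.0 to 83.4 CPM (tropicamide) and 37.7 to 100.1 CPM (saline), with 2 of 8 higher. The ranges also overlapped for the rod bipolar, cone bipolar and endothelial lists. For Müller glia markers they did not, at 68.6 to 71.3 CPM (tropicamide) and 43.7 to 68.2 CPM (saline). The 9 cone markers summed to 263 to 313 CPM (tropicamide) and 285 to 311 CPM (saline), yet 8 of 9 were higher after tropicamide. Gnb3, which fell, averaged 202 CPM (tropicamide) and 247 CPM (saline) of that sum. The part of transcripts of other cells in the member results was not tested.

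Genes around the members were read from 5 lists, whose counts in rods stand beside 5.52% higher and 4.72% lower among all genes tested. Of 28 rod phototransduction and outer segment genes, all tested in rods, 7 rose and none fell, with a median log2 fold change of 0.08. Slc24a1, the rod sodium-calcium exchanger, averaged 846 ± 22.5 CPM (tropicamide) and 689 ± 43.9 CPM (saline; SD, n = 3 each), a log2 fold change of 0.31 ± 0.05 (SE; adjusted p = 0.00677, edgeR). Rp1, a microtubule protein of the outer segment, rose by 0.22 ± 0.04 (adjusted p = 0.0138), and the channel subunits Cngb1 (0.19 ± 0.04, adjusted p = 0.0195) and Cnga1 (0.19 ± 0.05, adjusted p = 0.0269) rose with it. The Rp1 call was lost without tropicamide replicate 1 or 2 or saline replicate 2, the Cngb1 call without any 1 tropicamide pool or saline replicate 2, and the Cnga1 call without any 1 pool except saline replicate 3. Cngb1 (0.17, adjusted p = 0.0531) and Cnga1 (0.12, adjusted p = 0.108) also lost their calls in the largest rod cluster. In rods of at least 1% mitochondrial UMIs none of the 4 passed, and Slc24a1 had 0.20 there (adjusted p = 0.173).

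Of 26 other photoreceptor regulators 19 were tested in rods and 2 rose, where 10.2% of all genes tested in rods passed in either direction. A count of this size does not set the list apart. Samd11, whose protein works with Samd7 in Polycomb silencing, averaged 411 ± 20.8 CPM (tropicamide) and 310 ± 1.68 CPM (saline; SD, n = 3 each), a log2 fold change of 0.42 ± 0.05 (SE; adjusted p = 0.00134, edgeR). It passed in all 16 alternatives, at 0.36 to 0.46. Rax, a homeodomain factor of the eye field, averaged 209 ± 13.0 CPM (tropicamide) and 185 ± 5.48 CPM (saline), at 0.20 ± 0.06 (SE; edgeR, adjusted p = 0.0451), a call lost without tropicamide replicate 2 or 3 or saline replicate 1 or 2, in the largest rod cluster, in rods of at least 1% mitochondrial UMIs and in rods drawn to equal depth. Mef2c, which acts with Nrl and Crx on rod promoters, had a log2 fold change of -0.11 ± 0.05 (SE; adjusted p = 0.151, edgeR), and it passed without saline replicate 3 (-0.14, adjusted p = 0.0407). Rxrg, a partner of Thrb in cones, was too low for a test in rods, and in cones it averaged 64.9 ± 8.76 CPM (tropicamide) and 78.2 ± 18.8 CPM (saline; SD, n = 3 each).

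Of 12 cone genes 10 were tested in rods, 3 rose and 1 fell, with a median log2 fold change of 0.67. Among all genes tested in rods 5.52% rose and 4.72% fell. Gnb3, the cone transducin beta subunit, fell by 0.28 on the log2 scale, at 202 ± 9.14 CPM (tropicamide) and 247 ± 7.69 CPM (saline; SD, n = 3 each; edgeR, adjusted p = 0.0106), and that call was lost without tropicamide replicate 2 (-0.27, adjusted p = 0.0539) and in rods of at least 1% mitochondrial UMIs (-0.27, adjusted p = 0.0578). The 3 that rose were at low levels in rods: Opn1mw at 13.0 ± 4.47 CPM (tropicamide) and 6.12 ± 2.45 CPM (saline), Pde6h at 18.9 ± 7.28 CPM (tropicamide) and 9.10 ± 3.22 CPM (saline), and Arr3 at 21.3 ± 4.90 CPM (tropicamide) and 14.8 ± 2.002 CPM (saline). Opn1mw, Pde6h and Arr3 had log2 fold changes of 1.09, 1.06 and 0.52 (edgeR, adjusted p = 0.0376, 0.0378 and 0.0464). The erythroid, fibroblast and pigment epithelium markers given above moved with them, and their part was not tested. Each lost its call without tropicamide replicate 1 or 3 or saline replicate 1 or 2, Arr3 also without tropicamide replicate 2, and all 3 lost it in the largest rod cluster. DESeq2 did not call Opn1mw or Pde6h (adjusted p = 0.108 and 0.109), Pde6h was not called without doublet removal (0.99, adjusted p = 0.0549), and Arr3 was not in rods of at least 1% mitochondrial UMIs (0.50, adjusted p = 0.103). Of 16 bipolar transcription factors 10 were tested in rods and none passed, with a median log2 fold change of 0.17. Of 15 pigment epithelium genes that act under Otx2 and Mitf, 12 were tested in rods and 8 rose, led by Lrat (2.70), Ttr (2.30), Tyrp1 (2.60) and Rgr (2.17, all log2; edgeR, adjusted p 0.00363 to 0.00677). In rods Lrat averaged 2.12 ± 0.374 CPM (tropicamide) and 0.327 ± 0.229 CPM (saline), and Ttr 157 ± 70.2 CPM (tropicamide) and 32.4 ± 15.9 CPM (saline; SD, n = 3 each). The list had a median log2 fold change of 1.25. The pigment epithelium markers summed above all belong to this list, so their rise is not a separate observation. The pools also differed in pigment epithelial cells, with 272 to 680 per tropicamide pool and 71 to 189 per saline pool. The part of transcripts from those cells in these rod values was not tested.

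In cones no member passed the test, and the groups of every member overlapped, where 9.64% of all genes tested had groups that did not. Of 7107 genes tested 2 passed (0.0281%), both higher, and 296 had an unadjusted p under 0.05 (4.16%). Thrb had 1287, 1260 and 1055 CPM in tropicamide cones, against 1432, 981 and 953 CPM in saline cones, and its log2 fold change of 0.07 has a 95% interval of -0.28 to 0.41 (edgeR, adjusted p = 0.998). Crx had 551 to 586 CPM in tropicamide cones and 558 to 669.6 CPM in saline cones. Neurod1 had 802 to 957 CPM in tropicamide cones and 636 to 1021 CPM in saline cones, and Prdm1 89.4 to 198 CPM (tropicamide) and 139 to 234 CPM (saline). Nr2e3, which is low in cones, had 83.6, 72.9 and 96.1 CPM in tropicamide cones, against 47.1, 79.6 and 35.9 CPM in saline cones, a log2 fold change of 0.78 ± 0.27 (SE; adjusted p = 0.898, edgeR). Among the lists, only Ttr of the pigment epithelium genes passed in cones, with a log2 fold change of 2.12 ± 0.33 (SE; adjusted p = 0.00126, edgeR). The part of pigment epithelium transcripts in this value was not tested.

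No member passed in bipolar cells either, where 0 of 7629 genes passed in edgeR (0%), 439 had an unadjusted p under 0.05 (5.75%) and DESeq2 called 1. Prdm1 was too low for a test there. Otx2, the member that leads in this class, had 408, 455 and 445 CPM (tropicamide), against 431, 399.8 and 427 CPM (saline), and its log2 fold change of 0.02 has a 95% interval of -0.26 to 0.29 (edgeR, adjusted p = 0.997). Crx had 218, 177 and 206 CPM in tropicamide bipolar cells, against 141, 131 and 166 CPM in saline ones, without overlap, a log2 fold change of 0.39 ± 0.16 (SE; adjusted p = 0.777, edgeR). Nr2e3 had 57.3, 67.1 and 88.0 CPM (tropicamide), against 47.9, 40.3 and 48.7 CPM (saline), again without overlap, a log2 fold change of 0.53 ± 0.24 (SE; adjusted p = 0.827, edgeR). Those 2 of the 10 members had groups that did not overlap, where 11.2% of all genes tested did.

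In the pigment epithelium 7 of 5302 genes passed (0.132%) and none was a member. Otx2 had 293, 326 and 305 CPM (tropicamide), against 353, 256 and 312 CPM (saline), a log2 fold change of -0.01 with a 95% interval of -0.25 to 0.23 (edgeR, adjusted p = 0.995). Nr2e3 had 100.1, 93.0 and 139 CPM (tropicamide), against 69.6, 81.3 and 58.3 CPM (saline), without overlap, a log2 fold change of 0.75 ± 0.22 (SE; adjusted p = 0.264, edgeR). It passed with the replicate block (0.80, adjusted p = 0.0413) and without doublet removal (0.79, adjusted p = 0.0222). Nr2e3 and Neurod1 were the 2 members whose groups did not overlap, where 13.9% of all genes tested had such groups. Of the pigment epithelium list 14 of 15 genes were tested there and 1 passed, Dct, a melanin enzyme, at 1966 ± 494 CPM (tropicamide) and 3124 ± 645 CPM (saline; SD, n = 3 each), a log2 fold change of -0.67 ± 0.11 (SE; adjusted p = 0.000787, edgeR). That call was lost without tropicamide replicate 2 (-0.52, adjusted p = 0.0523) or saline replicate 2 (-0.50, adjusted p = 0.104) and in DESeq2.

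**Figure D4:**
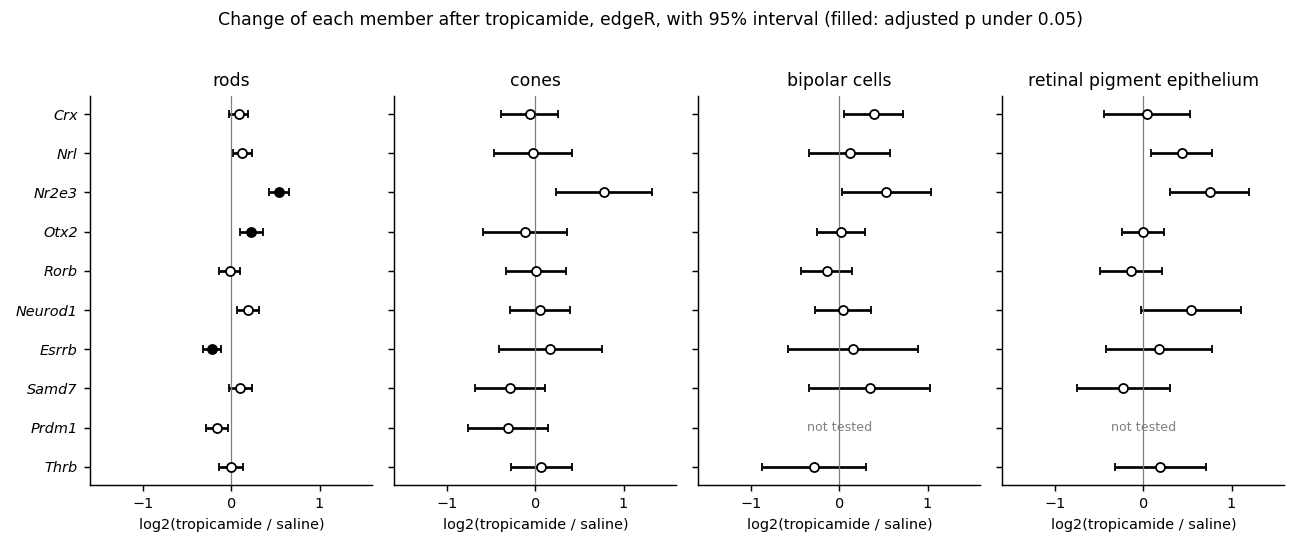
Log2 fold change of each member, tropicamide over saline, in 4 cell classes from edgeR, with 95% intervals and filled points for an adjusted p under 0.05. Filled points occur only for Nr2e3, Otx2 and Esrrb in rods; the Nr2e3 estimates of 0.53 to 0.78 in the other 3 classes have wide intervals.

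Whether the change of Nr2e3 differed between classes was tested directly. Its change in cones exceeded that in rods by 0.10 (95% interval -0.56 to 0.76; limma, adjusted p = 0.953), that in bipolar cells differed by -0.0005 (-0.45 to 0.45; adjusted p = 1.00), and that in the pigment epithelium by 0.09 (-0.43 to 0.61; adjusted p = 0.912). Over all genes 0 of 7048 passed for cones (0%), 0 of 7423 for bipolar cells (0%) and 1 of 5192 for the pigment epithelium (0.0193%). No member passed in any of the 3 classes, and the intervals are too wide to show that the changes were equal. Fibroblasts had 43.8, 40.7 and 44.9 CPM of Nr2e3 in tropicamide pools, against 29.5, 25.2 and 30.97 CPM in saline pools, without overlap. The 7 rod markers moved with it there, at 1015 to 1250 CPM (tropicamide) and 825 to 976 CPM (saline), with 7 of 7 higher after tropicamide. In the pigment epithelium they summed to 2463 to 3475 CPM (tropicamide) and 2341 to 3137 CPM (saline), with 5 of 7 higher. Cones had 9570 to 11280 CPM of them (tropicamide) and 9971 to 12140 CPM (saline), with 2 of 7 higher. Bipolar cells had 1463 to 2642 CPM (tropicamide) and 1737 to 2235 CPM (saline), with 5 of 7 higher. The part of rod transcripts in the Nr2e3 values of these classes was not tested. For Otx2 the change in the pigment epithelium minus that in rods was -0.21 (95% interval -0.65 to 0.22; limma, adjusted p = 0.741).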

How the data were processed

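Single cells of 6 pools were measured by droplet RNA sequencing. The deposited values are raw UMI counts per gene and barcode, made by the authors with Cell Ranger 8.0.1 and STAR on GRCm39 per the submitters' processing notes; no source used here says whether counting used strand. The labels' extraction protocol describes bone and cell sorting and was not used as a description of these eyes. Barcodes under 500 UMIs or 300 genes, or above 20% mitochondrial UMIs, were dropped, and doublets were removed by comparison with 2 simulated doublets per barcode over 50 neighbours, at an assumed 0.8% per 1000 barcodes. Of 66434 barcodes, 5922 were removed as doublets. Cells were clustered (Leiden, resolution 1, 2000 variable genes without the 10 members, 30 components, 20 neighbours, 2 rounds; scanpy 1.11.5, leidenalg 0.10.2) and named from 27 marker lists. The limits for naming were set after the clusters had been seen, and 6 of 53 clusters stayed unnamed. Free RNA was not removed.

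Counts were summed per pool and class and tested with edgeR 4.0.16 (TMM, filterByExpr, quasi-likelihood test, Benjamini-Hochberg adjustment over all genes tested, threshold 0.05; R 4.3.3). Differences between classes were tested with limma 3.58.1 on log2 CPM with a prior count, and DESeq2 1.42.0 was an alternative. Fold changes are tropicamide over saline. In data simulated from these counts, 55.2% of genes changed 1.5-fold and 76.9% of those changed 2-fold were recovered in rods (16178 genes), 20.3% and 72.1% in cones (6786 genes), 13.3% and 62.3% in bipolar cells (7296 genes) and 32.2% and 65% in the pigment epithelium (5026 genes). Of calls in the simulated data, 8.75% were false in rods, 1.68% in cones, 10% in bipolar cells and 0.847% in the pigment epithelium. For the difference between a class and rods, 2-fold changes were recovered in 9.09% (cones, 7048 genes), 4.69% (bipolar cells, 7423 genes) and 7.58% (pigment epithelium, 5192 genes) of cases. There the rods were drawn independently of the other class, so any deviation that classes of a pool share was left out. Recovery in the real pools may differ from these shares.

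All 10 members are named, with up to 4 genes of smallest p among those past the threshold in each list and class, Rax, Samd11, Rxrg and Mef2c, and the 3 genes most like each member. A gene that this rule names is not reported here. The members and the lists were chosen with earlier results of these data known. The alternatives were other size factors, DESeq2, no low-count filter, a replicate block, each pool left out, a stricter cell filter, no doublet removal and subsets of cells; the largest cone cluster alone and bipolar cells with an unnamed cluster were added after seeing the data.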

Additional observations from a re-analysis of the deposited data

How the results depend on the processing

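Of 530 recomputed changes, 434 kept their direction and their side of the threshold, 66 lost a call, 10 gained one and 20 changed sign. In rods 1680 genes passed, with 423 to 2460 when 1 pool was left out (423 without tropicamide replicate 2), 746 in the largest cluster and 305 in rods of at least 1% mitochondrial UMIs. In cones 2 passed, with 1 to 4 when 1 pool was left out, 1 with DESeq2, 5 with no low-count filter, 4 without doublet removal and 1 in the largest cone cluster. In bipolar cells 0 passed, with 0 to 21 when 1 pool was left out, 1 with DESeq2, 72 with no low-count filter and 4 with the unnamed cluster added. In the pigment epithelium 7 passed, with 4 to 16 when 1 pool was left out, 4 with DESeq2, 23 with no low-count filter and 13 under the stricter cell filter. For the pigment epithelium against rods 1 gene passed, and 0 with a prior count of 0.5. The cause was not tested.

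The changes that turned sign had not passed the test. When 1 pool was left out, Rorb in rods ranged over -0.060 to 0.023, Thrb in rods over -0.068 to 0.063, Thrb in cones over -0.048 to 0.30, Otx2 in bipolar cells over -0.026 to 0.068 and Otx2 in the pigment epithelium over -0.084 to 0.063. Thrb in rods was 0.017 in the largest cluster, 0.11 in rods of at least 1% mitochondrial UMIs and 0.012 in rods drawn to equal depth, and Mef2c was 0.017 in the largest cluster. Otx2 was -0.083 in rod bipolar cells alone, and in the pigment epithelium 0.070 with no low-count filter and 0.059 without doublet removal. The Nr2e3 difference of bipolar cells and rods was 0.028 with a prior count of 0.5. Cone bipolar cells alone were not run, since 1 pool had too few.

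With a replicate block 1369 genes passed in rods and 24 in the pigment epithelium. Pools of the same number had correlations of their deviations of -0.113, -0.001 and -0.059 over 7604 genes. Pools of unlike number had -0.079 to 0.108. With 3 pools per group these values cannot exclude a shared batch, and no label pairs the pools by number. Levels moved by less than 1 SD in 71 of 80 recomputed cases, while 74 of 80 shares of cells moved with the depth of thinning. In simulated data 20.3% of 1.5-fold changes were recovered in cones and 13.3% in bipolar cells, against 55.2% in rods, so small changes in those 2 classes could be missed; cell number as the cause was not tested.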
